A study of Homo sapiens with 2 samples.

Results

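The 10 genes IL2RG, IL6R, IL6ST, JAK1, JAK2, STAT3, SOCS1, SOCS2, SOCS3 and CISH are receptors, kinases, a transcription factor and feedback inhibitors of the JAK-STAT pathway. They were picked by name with the difference between JIB-04 and DMSO already known, so their ratios are given as descriptions, and they were matched by Entrez identifier among the 27685 genes in the files. RNA came from the human cell line PLC/PRF/5, established from a hepatocellular carcinoma, after 24 h in 6 µM JIB-04, an inhibitor of Jumonji histone demethylases, or in DMSO, the solvent in which JIB-04 was dissolved. There was 1 library of polyadenylated, strand-specific RNA per condition, with an estimated 23721989 aligned fragments with JIB-04 and 28187793 with DMSO. A further sample label calls the control untreated, while the title and the methods name DMSO. With 1 library per condition no test was possible, and the 95% intervals given here cover counting error only, not the spread between cultures or library preparations. Because the RNA was bulk, a change in RNA per cell and a change in the mix of cells cannot be told apart.

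Cytokines that use this pathway bind paired receptor chains at the cell surface, which bring together Janus kinases, and these phosphorylate STAT proteins that enter the nucleus and switch on target genes. SOCS proteins and CIS, the product of CISH, are among those targets and shut the pathway down again. In hepatocytes interleukin 6, acting through IL6R, gp130 and STAT3, is best known for driving the acute phase response, whereas the common gamma chain encoded by IL2RG is known chiefly from lymphocytes.

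The level of a gene is given in TPM, the length-corrected share of all transcripts, summed over the transcripts annotated for the gene. The log2 ratio was computed on TPM + 1, JIB-04 over DMSO, and a gene was described if it reached 1 TPM in either of the libraries. IL2RG stood apart, at 24.4 TPM with JIB-04 and 2.15 TPM with DMSO, and IL6ST was the other gene at least 2-fold higher. Of the 9 genes described, 2 were at least 2-fold higher with JIB-04 and 0 were lower by that much. Over all 14450 genes described, the same limit was passed upward by 5.99% and downward by 6.88%. In all, 7 of the 9 had a log2 ratio above 0 and 2 below 0, with a median of 0.52, beside a median of -0.15 over all genes described. JAK2 stayed below 1 TPM in both libraries and is the gene that was not described. SOCS1 passed only through its level with JIB-04.

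**Figure D1:**
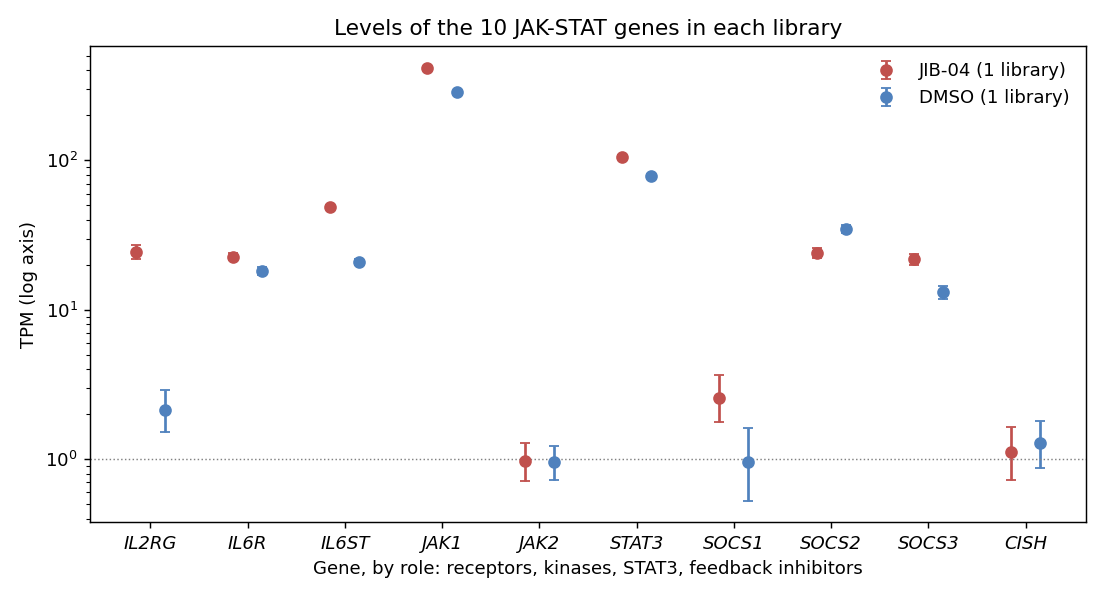
TPM of each of the 10 genes on a log axis, with JIB-04 in red on the left and DMSO in blue on the right, 1 library each. Bars are 95% counting intervals and the dotted line marks 1 TPM. IL2RG has the widest gap, JAK1 the highest level in both libraries, and JAK2, SOCS1 and CISH lie near the dotted line.

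IL2RG encodes the common gamma chain, shared by the receptors for interleukins 2, 4, 7, 9, 15 and 21. It lies on the minus strand of the X chromosome, chrX:70327254-70331481 on hg19, with 8 exons and 1 annotated transcript. Its level was 24.4 TPM with JIB-04, from an estimated 368 fragments, against 2.15 TPM with DMSO, from 39 fragments. That is 11.4-fold higher, with a log2 ratio of 3.01 and a counting interval of 2.66 to 3.36. IL2RG ranked 36 of 14450 genes by log2 ratio. In the order of levels among the 10 genes it was the fourth highest with JIB-04 and the seventh with DMSO. With JIB-04 its counting interval overlapped those of SOCS2, IL6R and SOCS3.

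The higher level of IL2RG was found along the whole transcript. Exon coverage was divided by the coverage that 1 TPM had in its library, so that both libraries are on the scale of TPM. On that scale exon 4 had the highest value with JIB-04, 35.5, while the 8 exons ran from 0.90 to 2.97 with DMSO. Every exon was above that range with JIB-04. The last exon, of 518 bases, was 8.25-fold higher and the other exons together 13.7-fold higher. None of the exonic bases of IL2RG is shared with another annotated gene.

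The genes next to IL2RG did not show a difference of that size. CXorf65, which begins 616 bases away on the same strand, was at 0 in both libraries. FOXO4, a forkhead transcription factor on the opposite strand, had 10.1 TPM with JIB-04 and 6.40 TPM with DMSO. MED12, a subunit of the Mediator complex, had 30.9 TPM with JIB-04 and 33.9 TPM with DMSO. These neighbours were thus within 2-fold or at 0. Farther off, SNX12 had 90.0 and NLGN3 0.89 TPM with JIB-04, against 111 TPM for SNX12 and 0.76 TPM for NLGN3 with DMSO.

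The promoter of IL2RG is shown because this gene differed most. It is the 250 bases before the RefSeq start on GRCh38.p14, at chrX:71111578-71111827 on the minus strand, printed 5′ to 3′. The capitals mark ACGTG, a core bound by hypoxia-inducible factors, which was searched on both strands together with its sister form GCGTG.
IL2RG: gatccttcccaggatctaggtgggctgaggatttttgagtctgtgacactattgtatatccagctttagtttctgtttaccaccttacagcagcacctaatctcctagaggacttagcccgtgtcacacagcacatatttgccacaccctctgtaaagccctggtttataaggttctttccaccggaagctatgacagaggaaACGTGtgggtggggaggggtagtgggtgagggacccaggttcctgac

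The match lies 47 to 43 bases before the start. ACGTG occurs in 21.4% and GCGTG in 36.5% of 35116 RefSeq promoter windows, so the match is a common string and describes the letters only. These windows run from 250 bases before to 50 after the start, and were searched whole, so they are longer than the stretch printed.

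The 3 genes whose pair of levels was nearest to that of IL2RG, by Euclidean distance of log2(TPM + 1) over the 2 libraries, were DOK3, ANKRD37 and HOXA13. DOK3, an adaptor protein of immune receptor signaling, had 23.7 TPM with JIB-04 and 1.53 TPM with DMSO. ANKRD37, an ankyrin repeat gene known as a target of hypoxia-inducible factors, had 24.6 TPM with JIB-04 and 2.95 TPM with DMSO. HOXA13, a homeobox transcription factor, had 18.5 TPM with JIB-04 and 2.81 TPM with DMSO. Because they were chosen by these levels, all 3 were low with DMSO and well above that with JIB-04, like IL2RG itself. A pair of libraries is too little to say more of their likeness.

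Of the chains that pair with the common gamma chain, most were scarce or at 0 and IL4R was abundant in both libraries. IL2RA, IL7R and IL9R, the chains that bind interleukins 2, 7 and 9, were at 0 in both libraries. IL2RB had 0.094 TPM with JIB-04 and 0 with DMSO, and IL21R had 0.49 TPM with JIB-04 and 0.034 TPM with DMSO. IL15RA, the chain that binds interleukin 15, had 2.46 TPM with JIB-04 and 0.37 TPM with DMSO, a log2 ratio of 1.33 from 45 and 8 fragments. IL4R, which binds interleukin 4, was at 80.7 TPM with JIB-04 and 64.7 TPM with DMSO. JAK3, the kinase that the common gamma chain holds, had 4.63 TPM with JIB-04 and 5.39 TPM with DMSO. On the scale of log2(TPM + 1) IL2RG had a larger ratio than these partners, but that scale shrinks the ratio of scarce genes such as IL21R, with 24 and 2 fragments, and no test of the difference was possible.

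Markers of leukocytes, in which IL2RG is normally found, were looked at beside it. Of 19 leukocyte markers, 7 were at 0 with JIB-04 and 7 with DMSO, among them PTPRC, CD3D and SPI1 in both libraries. Their summed level was 49.5 TPM with JIB-04 and 65.9 TPM with DMSO, of which the lysozyme gene LYZ made up 41.9 and 57.3 TPM. Without LYZ the sum was 7.58 TPM with JIB-04 and 8.68 TPM with DMSO. GNLY was the only marker past 2-fold upward, at 2.17 TPM with JIB-04 and listed at 0 with DMSO, and CD14 the only one downward, at 1.37 TPM with JIB-04 and 6.05 TPM with DMSO. Of 6 markers of stromal and endothelial cells only COL1A1 was described, at 10.6 TPM with JIB-04 and 16.0 TPM with DMSO. All 11 hepatocyte markers passed 1 TPM in at least 1 library, and 7 of them had a log2 ratio below 0. AFP was at 151 TPM with JIB-04 and 131 TPM with DMSO and HNF4A at 72.3 and 71.9 TPM. Some were scarce, with APOA1 at 0.99 TPM with JIB-04 and 1.34 TPM with DMSO and ALB at 4.53 and 9.74 TPM. APOB, at 32.9 TPM with JIB-04 and 103 TPM with DMSO, and KRT18, at 2214 and 4484 TPM, were at least 2-fold lower.

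IL6ST encodes gp130, the chain that carries the signal of most interleukin 6 family cytokines. It lies on the minus strand at chr5:55230925-55290821 on hg19. Its level was 48.6 TPM with JIB-04, from 4293 fragments, against 20.9 TPM with DMSO, from 2248 fragments. The log2 ratio was 1.18, with a counting interval of 1.11 to 1.25, which made it the gene just inside the 2-fold limit, while SOCS1, at 0.87, was just outside it.

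The exons of IL6ST did not share this difference. The last exon, of 6723 bases, holds the end of the coding sequence and the 3′ untranslated region, and on the scale of TPM its coverage was 39.8 with JIB-04 and 4.30 with DMSO. It was thus 9.26-fold higher, with an estimated 2633 fragments with JIB-04 and 344 with DMSO. The other exons together held 1660 fragments with JIB-04 and 1904 with DMSO, which is 1.06-fold after the difference in depth. The exon before the last had a coverage of 106 with JIB-04 and 91.3 with DMSO. In the DMSO library coverage therefore dropped sharply at the last exon, and with JIB-04 it dropped less. Exon 4, of 306 bases, was the clearest exception among the others, at 33.8 with JIB-04 and 60.5 with DMSO. Without the last exon the log2 ratio of IL6ST was 0.08, so the call of IL6ST as higher rests on that exon.

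The same comparison was made for the 8070 genes with at least 5 exons and at least 50 fragments in each part and library. The log2 difference between the ratio of the last exon and that of the other exons was 3.13 for IL6ST and had a median of -0.07, with 95% of genes between -1.04 and 0.53. IL6ST ranked 17 from the top. A difference of at least 2 was seen in 54 genes, 0.669%, and one of at most -2 in 55 genes. At a limit of 1 there were 91 genes upward and 225 downward. Of 328 compared genes that were at least 2-fold higher, 34 had other exons within 2-fold, as IL6ST did. The cause of the jump in IL6ST was not tested.

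**Figure D2:**
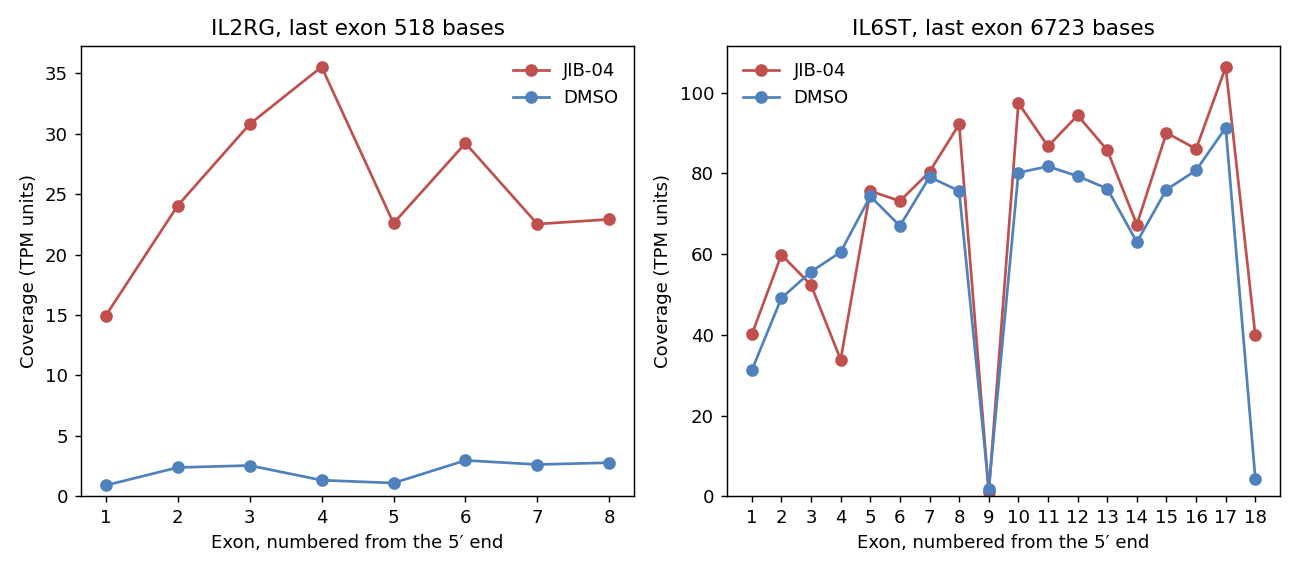
Coverage of each exon of IL2RG (left) and IL6ST (right), in TPM units, against exon number from the 5′ end, with JIB-04 in red and DMSO in blue. IL2RG is higher with JIB-04 in all 8 exons, whereas the lines of IL6ST lie farthest apart in ratio at the last exon, at 39.8 with JIB-04 and 4.30 with DMSO. In exon 4 of IL6ST the JIB-04 line lies below, at 33.8 against 60.5, and exon 9 belongs to 1 transcript.

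IL6R encodes the chain that binds interleukin 6 and brings it to gp130. It lies at chr1:154377669-154441926 on the plus strand and had 22.7 TPM with JIB-04 and 18.2 TPM with DMSO. Its log2 ratio of 0.31, with a counting interval of 0.20 to 0.42, was positive but small. Leaving out the last exons raised it to 0.67, since the last exons were 1.19-fold and the other exons 1.62-fold higher. Thus IL6R and IL6ST differed from each other in where along the transcript the difference lay.

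Transcripts were also compared, since soluble and membrane-bound receptors come from the same genes. The main transcript of IL6R, NM_000565, which encodes the membrane-bound receptor, held 82.7% of its TPM with JIB-04 and 91.6% with DMSO. NM_181359, which lacks the 94-base exon of the membrane anchor and encodes a soluble receptor, held 10.2% with JIB-04 and was listed at 0 with DMSO. The coverage of that 94-base exon was 23.7 with JIB-04 and 15.1 with DMSO on the scale of TPM, while the exon before it, of 70 bases, had 21.3 with JIB-04 and 16.9 with DMSO. The exon that would be skipped was therefore not lower than its neighbour with JIB-04, and the shares are estimates of StringTie rather than counts of skipping. For IL6ST, NM_002184 held 45.6% with JIB-04 and 45.3% with DMSO and NM_001190981 held 43.5% with JIB-04 and 16.3% with DMSO. Exon 12, of 183 bases, is not part of NM_001190981. Its coverage was 94.4 with JIB-04 and 79.3 with DMSO. Exon 11 had 86.7 with JIB-04 and 81.7 with DMSO, and exon 13 had 85.8 and 76.2. With JIB-04 exon 12 was thus not lower than its neighbours. The larger share of NM_001190981 is likewise an estimate of StringTie. The noncoding transcript NR_120480 held 11.0% of IL6ST with JIB-04 and 38.4% with DMSO, although its own exon of 46 bases had a coverage of only 1.01 with JIB-04 and 1.89 with DMSO.

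JAK1, the kinase bound by gp130 and by most receptor chains named here, was the most abundant of the 10 genes in both libraries. It lies at chr1:65298906-65533429 on the minus strand and had 413 TPM with JIB-04 and 287 TPM with DMSO. Its log2 ratio was 0.52, with a counting interval of 0.49 to 0.55, the narrowest of the 10 since it rests on 20754 and 17473 fragments. NM_002227 held most of it, 85.2% with JIB-04 and 83.0% with DMSO. The last exons were 1.21-fold higher and the others 1.55-fold higher, so that the direction did not depend on the exons used. Only 9 exonic bases of JAK1 are shared with another gene, RAVER2 on the opposite strand.

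JAK2, the kinase of the growth hormone and interferon gamma receptors among others, was scarce. It lies at chr9:4985086-5128183 on the plus strand and had 0.98 TPM with JIB-04, from 50 fragments, and 0.95 TPM with DMSO, from 60 fragments. The log2 ratio was 0.02 with a counting interval of -0.26 to 0.29, so a difference was not detectable at this depth. Its reads were spread over 4 transcripts with JIB-04 and 1 with DMSO, which at 50 and 60 fragments says little of which transcripts were made. By TPM, which is corrected for length, JAK1 was thus far more abundant than JAK2 in both libraries.

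STAT3, the transcription factor that gp130 activates, had 105 TPM with JIB-04 and 79.1 TPM with DMSO and lies at chr17:40465343-40540513 on the minus strand. Its log2 ratio was 0.41 with a counting interval of 0.35 to 0.46. On the log2 scale the last exon was 0.44 and the other exons together 0.38 higher. Its single exons were all higher with JIB-04 but unevenly so, 1.10-fold in exon 15 and 1.89-fold in exon 26 at the extremes. Its transcripts were assigned nearly the same shares in both libraries. NM_213662, which encodes the shorter STAT3 beta, held 47.8% with JIB-04 and 45.9% with DMSO. NM_139276 held 33.2% with JIB-04 and 35.0% with DMSO, and NM_003150 held 18.9% with JIB-04 and 19.0% with DMSO, both of which encode forms of STAT3 alpha. These shares are estimates of StringTie. Exon 26, listed for NM_213662 only, had a coverage of 41.3 with JIB-04 and 21.8 with DMSO on the scale of TPM. Exon 27, its longer form in the other transcripts, had 72.1 with JIB-04 and 53.0 with DMSO. Exon 26 was thus the lower in both libraries, but had the larger ratio, 1.89-fold against 1.36-fold. The neighbour CAVIN1, a coat protein of caveolae that lies 13954 bases away, had 311 TPM with JIB-04 and 131 TPM with DMSO, while STAT5A and STAT5B, on the other side, had 0.058 and 22.7 TPM with JIB-04 against 0 for STAT5A and 24.9 TPM for STAT5B with DMSO.

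**Figure D3:**
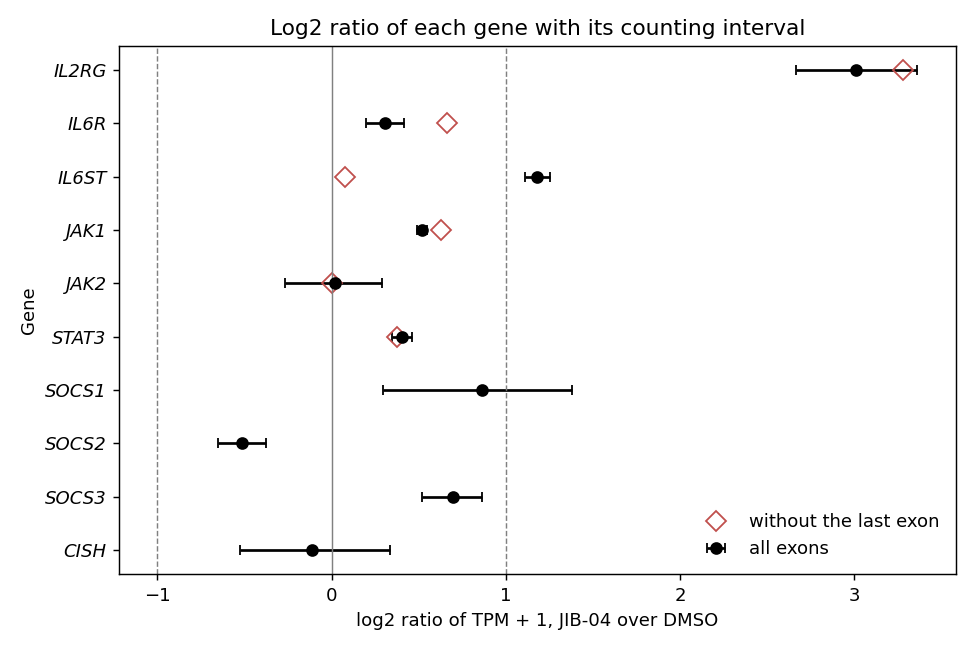
Log2 ratio of TPM + 1, JIB-04 over DMSO, of each of the 10 genes (filled circles) with its 95% counting interval, and the ratio without the last exon for the 6 genes with at least 5 exons (open diamonds). Dashed lines mark 2-fold. IL2RG lies at 3.01 and at 3.28 without its last exon, and IL6ST lies at 1.18 with all exons and at 0.08 without the last.

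Among the feedback inhibitors, SOCS3 is the one that binds gp130 and blocks JAK activity there. It had 21.8 TPM with JIB-04, from 587 fragments, and 13.1 TPM with DMSO, from 427 fragments, and lies at chr17:76352858-76356160 on the minus strand. The log2 ratio was 0.70, with a counting interval of 0.52 to 0.87, and both exons were higher with JIB-04, 1.97-fold and 1.65-fold. SOCS3 was thus higher by less than 2-fold. SOCS3-DT, which starts 369 bases away on the other strand, had a log2 ratio of 0.39.

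SOCS1, which inhibits JAKs downstream of interferon receptors, had 2.58 TPM with JIB-04, from 31 fragments, and 0.97 TPM with DMSO, from 14 fragments. It lies at chr16:11348274-11350039 on the minus strand. The ratio of the TPM values was 2.67, but with the pseudocount of 1 the log2 ratio was 0.87, with a counting interval of 0.30 to 1.38 that reaches past 2-fold. At this depth SOCS1 cannot be placed on either side of 2-fold, and with a pseudocount of 0.1 its log2 ratio was 1.33.

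SOCS2, an inhibitor of growth hormone signaling, went the other way. It had 24.0 TPM with JIB-04, from 622 fragments, and 34.7 TPM with DMSO, from 1095 fragments, a log2 ratio of -0.51 with a counting interval of -0.65 to -0.37, and lies at chr12:93963598-93970521 on the plus strand. Its 6 annotated transcripts were above 0 in both libraries and differ in their first exons. The transcript NM_001270468 had 7.73 TPM with JIB-04 and 15.2 TPM with DMSO, NM_003877 had 1.64 and 6.04 TPM, and NM_001270469 had 5.99 and 3.99 TPM. These values are estimates of StringTie. On the scale of TPM the first exon of NM_001270468 had a coverage of 5.26 with JIB-04 and 11.0 with DMSO. The first exon of NM_003877 had 1.46 with JIB-04 and 3.69 with DMSO. That of NM_001270469, which overlaps the first exon of NM_001270470, had 2.12 with JIB-04 and 1.88 with DMSO. The lower level of SOCS2 was therefore not seen in each of its first exons. SOCS2-AS1, on the opposite strand and sharing no exonic base with it, had 3.64 TPM with JIB-04 and 5.14 TPM with DMSO.

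CISH encodes CIS, a target and inhibitor of STAT5 signaling, and was scarce in both libraries. It had 1.12 TPM with JIB-04, from 25 fragments, and 1.29 TPM with DMSO, from 32 fragments, with a log2 ratio of -0.11 and a counting interval of -0.53 to 0.33. It lies at chr3:50643885-50649262 on the minus strand. All of its TPM was assigned to NM_013324 with JIB-04 and to NM_145071 with DMSO. The exon of 157 bases that separates them had a coverage of 0.37 with JIB-04 and 0 with DMSO on the scale of TPM, so this exchange of transcripts rests on very few reads. Of the 6 genes here with several transcripts and at least 1 TPM in both libraries, CISH was the 1 whose leading transcript differed, while over all genes of that kind the leading transcript differed in 16.3% of 8112.

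**Figure D4:**
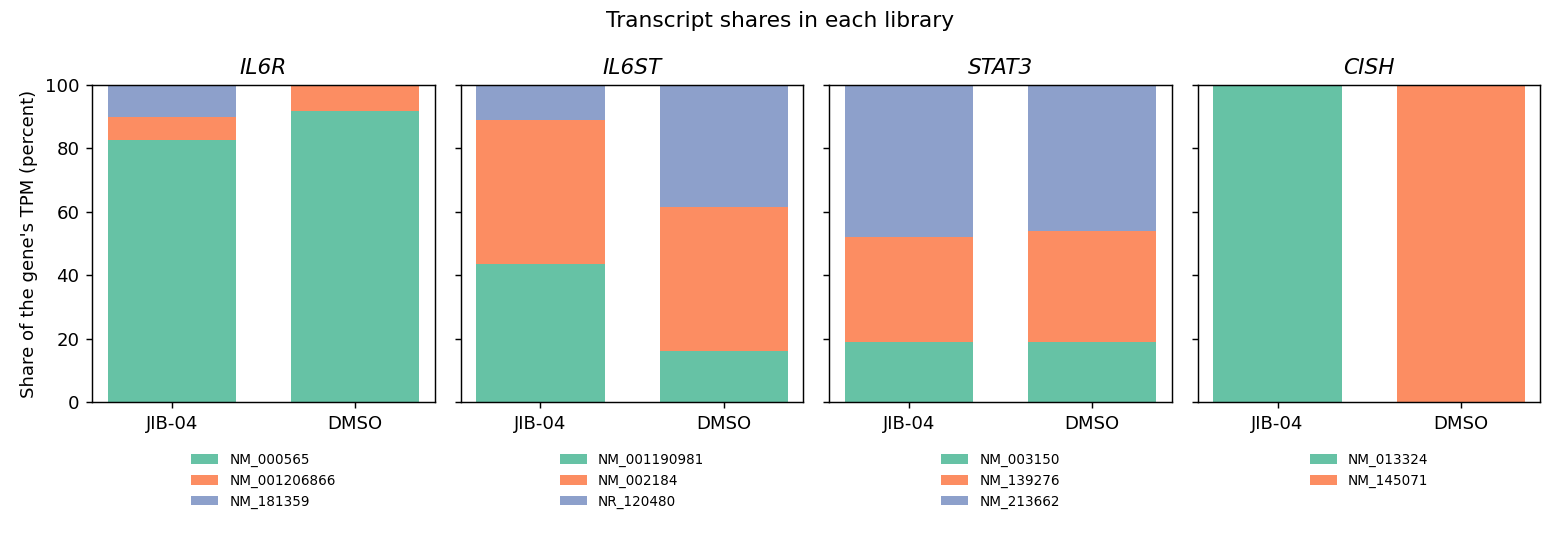
Share of the TPM of IL6R, IL6ST, STAT3 and CISH assigned to each annotated transcript, in percent, with JIB-04 as the left bar and DMSO as the right bar of each panel. The shares are estimates of StringTie. STAT3 has nearly the same shares in both, and CISH has a different transcript in each library. More of IL6ST is assigned to NM_001190981 and less to NR_120480 with JIB-04.

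CISH is shown for its promoter, because it was the only 1 of the 9 genes with a RefSeq promoter here in which the STAT binding string TTCNNNGAA was found. The 250 bases before its start on GRCh38.p14 lie at chr3:50611775-50612024 on the minus strand and are printed 5′ to 3′, with the 4 matches in capitals. TTCNNNGAA reads the same on both strands.
CISH: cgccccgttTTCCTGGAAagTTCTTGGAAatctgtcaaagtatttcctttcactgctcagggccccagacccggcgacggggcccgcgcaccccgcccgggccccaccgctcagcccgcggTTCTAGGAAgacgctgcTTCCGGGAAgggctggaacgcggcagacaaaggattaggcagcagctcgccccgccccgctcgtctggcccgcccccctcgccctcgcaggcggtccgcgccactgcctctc

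The matches begin 241, 230, 129 and 112 bases before the start. The string occurs at least once in 7.66% of the 35116 windows from 250 bases before to 50 after a start and at least 4 times in 7 of them, or 0.0199%. IL2RG, IL6ST, SOCS1 and SOCS3 had no match in this window, and no other form of the STAT string was searched. Whether the matches bear on the level of any of these genes was not tested.

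The rest of the pathway was read from lists of 107 other genes, of which 52 were described. In these, 3 passed 2-fold upward with JIB-04 and 3 downward, and the median log2 ratio was -0.0017. Both shares, 5.77%, were near those of all genes. Of the partners of gp130, OSMR, the receptor chain for oncostatin M, had 212 TPM with JIB-04 and 77.0 TPM with DMSO, a log2 ratio of 1.45. Unlike IL6ST, OSMR was higher along its length, 2.57-fold in the last exons and 2.44-fold in the others. LEPR, the leptin receptor, was put in the same list but does not pair with gp130. It had 12.2 TPM with JIB-04 and 30.5 TPM with DMSO, a log2 ratio of -1.26. Of its exonic bases, 2.39% are shared with LEPROT on the same strand. IL11RA and IL27RA, which bind interleukins 11 and 27, were close to level, at 16.9 and 15.6 TPM with JIB-04 against 18.2 TPM for IL11RA and 15.2 TPM for IL27RA with DMSO.

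The ligands of these receptors were mostly absent, with 25 of 40 at 0 with JIB-04 and 28 with DMSO. IL6 itself was at 0 with JIB-04 and at 0.21 TPM with DMSO. LIF, IL11 and CLCF1, which belong to the interleukin 6 family, were measured at 14.0, 20.1 and 27.0 TPM with JIB-04. With DMSO they were at 10.8 TPM for LIF, 22.9 TPM for IL11 and 26.9 TPM for CLCF1. EBI3, a subunit of interleukin 27, had 68.4 TPM with JIB-04 and 51.7 TPM with DMSO. All of these were within 2-fold. IL23A was higher, at 3.09 TPM with JIB-04 and 0.55 TPM with DMSO. THPO, thrombopoietin, was lower, at 2.84 TPM with JIB-04 and 7.34 TPM with DMSO, and so was CNTF, at 1.21 and 5.24 TPM, but 95.1% of the exonic bases of CNTF belong also to the readthrough gene ZFP91-CNTF, so its value is uncertain.

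The other kinases and STATs lay mostly on the opposite side of 0 from JAK1 and STAT3. Of the 7 described, 0 were past 2-fold in either direction and 6 had a ratio below 0, with a median of -0.42. The median over all genes described was itself below 0, at -0.15, and 5.99% of them passed 2-fold upward and 6.88% downward. At those shares lists as short as the ones in this paragraph would hold few such genes, so their counts of 0 say little. STAT2, a STAT of interferon signaling, had 27.1 TPM with JIB-04 and 43.9 TPM with DMSO, and STAT6, the STAT of interleukin 4, had 67.4 TPM with JIB-04 and 58.6 TPM with DMSO. The 19 other inhibitors, which include SOCS4 to SOCS7, the PIAS proteins and phosphatases, were described in full, with 0 past 2-fold and a median of -0.01. The highest of them was PIAS2, at 12.7 TPM with JIB-04 and 7.62 TPM with DMSO, and the lowest CUL5, a scaffold of the SOCS ubiquitin ligase, at 10.8 and 19.9 TPM. Of 10 other receptor chains described, 0 were past 2-fold and 8 had a ratio above 0, with a median of 0.34 and with IFNGR2 highest, at 199 TPM with JIB-04 and 112 TPM with DMSO.

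Genes known as targets of the pathway were past 2-fold about as often as all genes. Of 25 targets of STAT3 described, 2 passed 2-fold upward and 2 downward, 8.0% each way beside 5.99% upward and 6.88% downward over all genes, and the median log2 ratio was -0.04. PIM1, a kinase, had 45.2 TPM with JIB-04 and 16.9 TPM with DMSO, and IRF1, a transcription factor of the interferon response, had 20.4 TPM with JIB-04 and 7.94 TPM with DMSO. CEBPB, a liver transcription factor, had 10.9 TPM with JIB-04 and 93.3 TPM with DMSO, a log2 ratio of -2.99 and the largest difference in these lists. Of the exonic bases of CEBPB, 26.6% are shared with CEBPB-AS1 on the opposite strand. LBP, an acute phase protein, had 5.27 TPM with JIB-04 and 12.1 TPM with DMSO. SOCS3, which is also a target of STAT3, lay between these groups. Of 26 interferon targets described, 1 was higher, ISG20 at 45.1 TPM with JIB-04 and 21.3 TPM with DMSO, and 1 lower, GBP1 at 1.28 TPM with JIB-04 and 4.63 TPM with DMSO, with a median of -0.04. That is 3.85% each way, beside the same 5.99% and 6.88% over all genes.

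**Figure D5:**
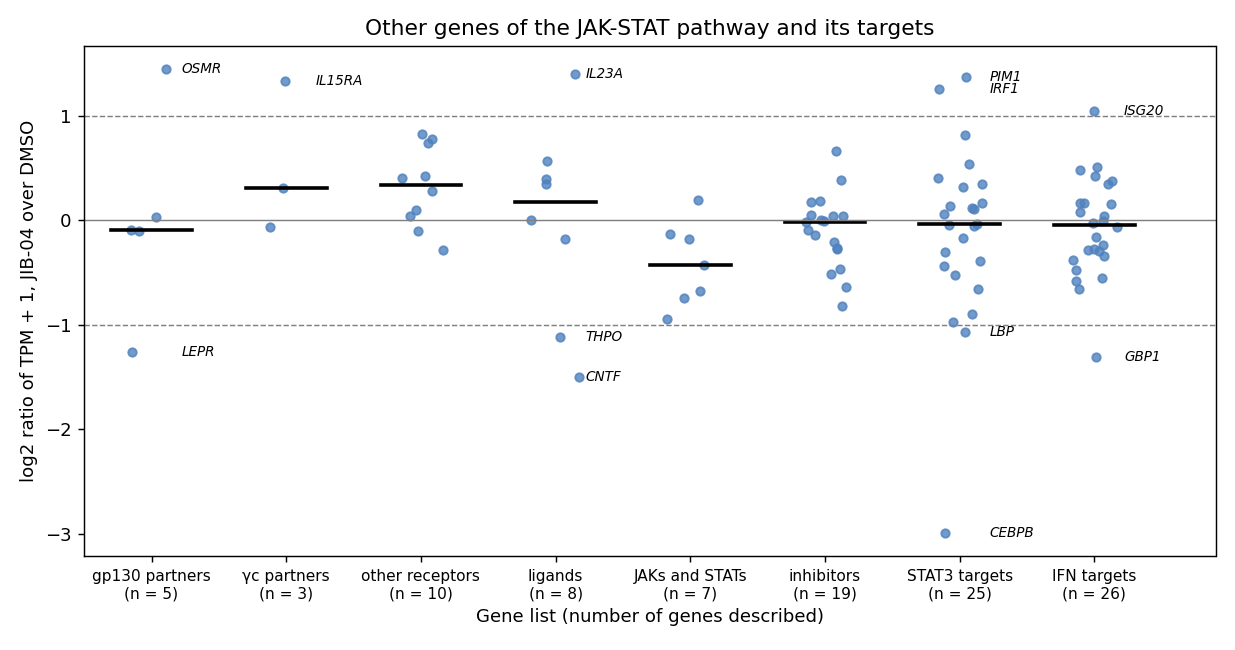
Log2 ratio of TPM + 1, JIB-04 over DMSO, of the described genes of 8 lists, with each gene as a point, the list's median as a bar and dashed lines at 2-fold. Points are spread sideways only to separate them, and γc stands for the common gamma chain. LEPR is plotted with the gp130 partners but does not pair with gp130. OSMR and CEBPB lie farthest from 0 among the abundant genes, at 1.45 and -2.99, and the list medians lie between -0.42 and 0.34.

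TPM measures shares of the RNA, and the scale itself matters for the smaller ratios of these genes. Setting the median of genes with at least 10 TPM in both libraries to 0 added 0.15 to every log2 ratio, and the 7 positive and 2 negative signs were the same on that scale except that CISH came to 0.04. SOCS1 came to 1.01 and so just past 2-fold. The genes past 2-fold that were higher made up 64.4% on that scale and 46.5% as reported. GAPDH, the reference gene of the study's quantitative PCR, was itself at 20148 TPM with JIB-04 and 7975 TPM with DMSO. Divided by GAPDH, with the pseudocount of 1 kept, IL2RG was still 1.67 higher on the log2 scale, while the other 9 genes were below 0, with IL6ST at -0.16, SOCS1 at -0.47, SOCS3 at -0.64, JAK1 at -0.82 and STAT3 at -0.93. With no pseudocount IL2RG was 2.17 higher, and SOCS1 came to 0.08. The direction of the smaller ratios of IL6R, IL6ST, JAK1, STAT3, SOCS1 and SOCS3 thus depends on whether GAPDH, itself higher with JIB-04, is the divisor. Without that division these ratios stayed above 0 under the other scalings and pseudocounts tried. The direction of IL2RG was the same on every scale tried.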

How the data were processed

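Per the submitters' processing notes, the authors used StringTie 1.3.3b after HISAT2 2.0.5, with the build hg19 (GRCh37), and the notes also list Bowtie2 2.2.6, Trimmomatic 0.32 and FastQC 0.11.5. Per the file headers, StringTie was run strand-specifically on annotated RefSeq transcripts only. The authors deposited coverage, FPKM and TPM for each transcript and coverage for each exon, other units than counts, with no read counts.

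TPM was summed per Entrez identifier, with symbols from RefSeq GRCh38.p14. Log2 ratios used a pseudocount of 1. A fragment was taken as 202 aligned bases, the commonest value on weakly covered transcripts, to turn coverage into estimated fragments. Of those transcripts 32.9% lay within 2 bases of a multiple of it, so the fragment numbers are approximate. Their ratio was given an exact conditional binomial 95% interval. It was tried on simulated data that assumed the same counting error, which cannot show how well it covers other error. Exon coverage was divided by the median coverage of 1 TPM in its library, 1.99 with JIB-04 and 2.40 with DMSO. Promoters came from RefSeq, which held 9 of the 10 genes, and SOCS2 was not matched.

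The genes and lists were chosen with earlier results of these data known. Beside the 10 genes, named genes are those of each list past 2-fold or with the 2 highest and 2 lowest ratios at a mean of at least 5 TPM, neighbours within 50 kb, the 3 nearest patterns to IL2RG, and GAPDH; IL2RG's partner chains, IL6, CLCF1, JAK3, HNF4A and the leukocyte markers at 0 were added after their values were seen. Some genes that this rule names are not reported here. Alternatives were pseudocounts, filters, thresholds, FPKM, scaling, quantile normalization and the most abundant transcript. Python 3.11.15, numpy 2.4.6, pandas 2.3.3, SciPy 1.17.1 and matplotlib 3.10.9 were used.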

Additional observations from a re-analysis of the deposited data

How the results depend on the processing

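Under the other pseudocounts, filters, scalings and transcript choice at the 2-fold limit, 2 of the 10 genes stayed at least 2-fold higher, IL2RG with log2 ratios of 2.04 to 3.45 and IL6ST with 1.05 to 1.33, and SOCS1 joined them, for a count of 3, with a pseudocount of 0.1 and with the median set to 0. The count of the 10 genes at least 2-fold higher was 4 at 1.5-fold and 1 at 3-fold, and the count lower was 1 for the most abundant transcript, where CISH came to -1.20. In alternatives chosen after seeing the data, 1 gene was higher without the last exons, and after division by GAPDH 1 was higher and 3 lower, with IL6ST at -0.16, or at -0.12 with no pseudocount, which gave the same counts. Of the other JAK-STAT genes, the number higher was 1 with FPKM, with a TPM of at least 5 and with a pseudocount of 5, 5 with a pseudocount of 0.1, 7 at 1.5-fold and 0 at 3-fold, and the number lower was 1 with a pseudocount of 5, 8 at 1.5-fold and 0 at 3-fold. Of all genes, 439 were higher and 409 lower with a pseudocount of 5, 1853 and 3030 at 1.5-fold, and 318 and 154 at 3-fold. With the median set to 0, 627 were lower, and the share of genes past 2-fold that were higher was 64.4%, 57.0% after quantile normalization and 46.5% as reported. The medians of the target lists stayed within the order-statistic interval of each list. Leaving out the filter on TPM changed no count, since a gene past 2-fold with this pseudocount has at least 1 TPM.

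With 1 library per condition, how far these values vary between cultures was not measured. JAK2, CISH and SOCS1, at 14 to 60 fragments a library, are limited by depth. No paired analysis was possible with 1 library per condition. The dependence of IL6ST on its last exon is a limit of gene-level TPM for that gene, and its cause was not tested.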
